A study of Arabidopsis thaliana with 42 samples.

Results

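Transposable elements are stretches of DNA that can move or copy themselves within a genome. In plant seedlings most of them are kept silent by DNA methylation, by repressive histone marks and by small RNAs that guide methylation back to matching copies, the pathway called RNA-directed DNA methylation. Copies near genes can still give RNA, either from their own promoters or because a transcript of a neighbouring gene runs through them, and the copies that a plant carries differ among natural accessions. The elements described here were those with polyadenylated RNA in seedlings: every feature with a transposable element identifier that reached at least 1 RPKM in at least 2 of 38 libraries. This rule chose 893 of the 31189 elements listed, or 2.86%, among 65238 features in all. RPKM is the number of reads on a feature divided by its length and by the mapped reads of the library. The levels that chose these elements are given as a description, and counts over them support nothing by themselves.

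The 38 libraries came from 19 natural accessions of Arabidopsis thaliana: Bur-0, Can-0, Col-0, Ct-1, Edi-0, Hi-0, Kn-0, Ler-0, Mt-0, No-0, Oy-0, Po-0, Rsch-4, Sf-2, Tsu-0, Wil-2, Ws-0, Wu-0 and Zu-0. All are untransformed and are the founders of a set of intercrossed lines, and Col-0 is the accession of the reference genome from which the elements take their identifiers. Every accession was sampled as whole seedlings about 11 days old, after 5 days of stratification at 4 C and growth on soil at 20 C under 16 h of light and 8 h of dark. Each accession gave 2 libraries, which the labels call biological replicates. The labels do not say how many plants went into a library, so p-values measure only the spread between these libraries. Labels place 3 or 4 accessions on each pair of sequencing lanes, and so accession and lane are partly confounded. Ws-0, Wu-0 and Zu-0 were on another sequencing run than the remaining accessions, Col-0 included. In their contrasts with Col-0, run and accession cannot be told apart. The library names of both Kn-0 samples end in the same number, while those of every other accession end in different numbers. Another 4 Col-0 libraries labelled as technical replicates listed 0 transposable elements and were not used here.

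The reads behind each library were estimated from the smallest steps between its values, since a gene counted in whole reads takes only multiples of what 1 read is worth. Ct-1 replicate 2 was the deepest library, at 4910000 reads, and Ws-0 replicate 2 the shallowest, at 1240000. The median was 3620000. The leaf gene RBCS1A, a subunit of the carbon-fixing enzyme Rubisco, lay between 15221 and 24195 RPKM in every library. The root gene PYK10, a beta-glucosidase, lay between 81.1 and 448 RPKM. Pollen is a tissue where some transposable elements are known to be active. The 3 pollen genes checked, AT1G29140, VGD1 and HAP2, reached at most 1.26, 0.137 and 1.70 RPKM and were listed at 0 in 25, 35 and 13 of 38 libraries. The seed storage gene CRU3 reached 17.1 RPKM and was at 0 in 31 libraries. In whole seedlings, fewer cells of a type and less RNA per cell cannot be told apart.

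Most elements gave no signal at all. Of the 31189 elements, 28264 were at 0 or had no value in every library, 2925 were above 0 somewhere, and 705 reached 1 RPKM in exactly 1 library and so stayed outside the rule. A single library had between 116 and 386 elements above 0, with a median of 312. Among the 893 elements, between 91 and 203 reached 1 RPKM in a given library. The lowest count was that of the shallowest library, Ws-0 replicate 2, and the highest was that of Edi-0 replicate 2. Transposable elements together took from 0.125% to 0.371% of all summed RPKM in a library.

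**Figure D1:**
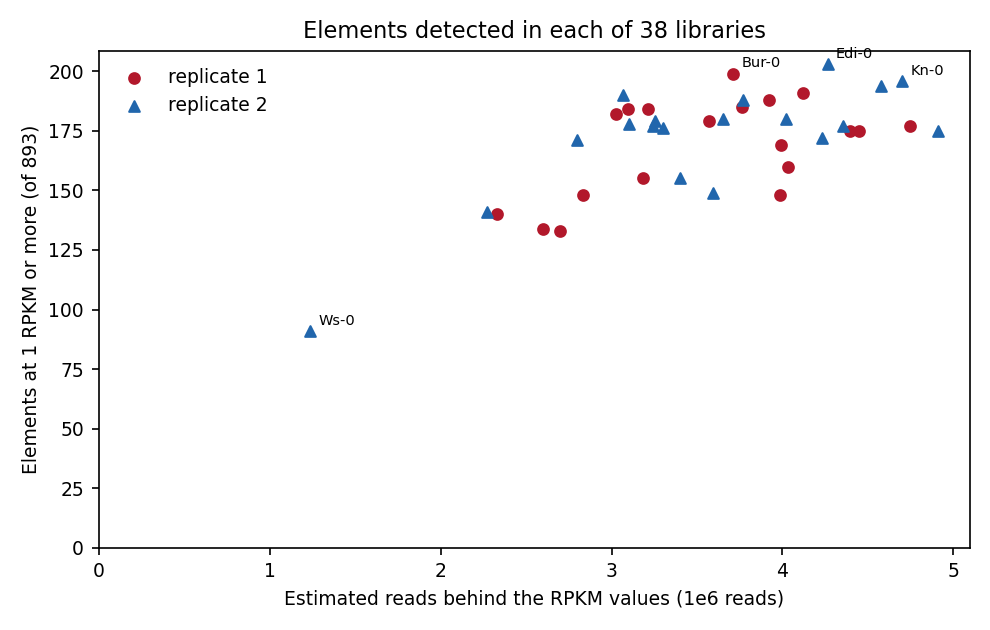
Number of the 893 elements at 1 RPKM or more (y axis) against the estimated reads behind the RPKM values (x axis, in units of 1e6 reads), 1 point per library, with circles for replicate 1 and triangles for replicate 2. Ws-0 replicate 2, at 1240000 reads and 91 elements, stands apart from the other 37 libraries, and Edi-0 replicate 2 has the most elements, 203.

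The deposited values carry the number of reads behind each element, and that number was small for most. Of 7706 element values that could be judged, 7058 (91.6%) were whole multiples of the element's smallest step to within 1%. In 655 of the 893 elements every value was such a multiple. One step is called a read equivalent here. Summed over the 38 libraries, the median element had 7.30 read equivalents, with quartiles of 3.00 and 20.0. There were 266 elements with at most 3 read equivalents in all and 541 with at most 10, and 350 never rose above 1 step in any library. At the other end, 128 elements had at least 38 read equivalents after rounding, a mean of 1 per library, and 39 had at least 100. The 10 best covered elements held 39.3% of all read equivalents.

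Where a step is 1 read, it also gives the length by which the authors divided, and this length sets how far 1 read lifts an element. Where a step is more than 1 read, the implied length is too short. For elements with whole steps the implied length had a median of 133 bp, and it was under 50 bp in 121 of them and under 300 bp in 558. Of 252 such elements under 100 bp, 246 gave a length within 0.1 bp of a whole number. The shortest implied length was 2.00 bp, that of AT1TE12135 on chromosome 1. That element was listed at 134.8 and 137.1 RPKM in Bur-0 replicates 1 and 2, each worth 1.00 read equivalent. It reached 250.9 RPKM in Kn-0 replicate 1, worth 2.00 read equivalents, and 0 in 29 libraries. Its mean of 37.8 RPKM, among the highest of all 893 elements, rests on 11.0 read equivalents. For the elements described below, RPKM and read equivalents therefore need to be read together.

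**Figure D2:**
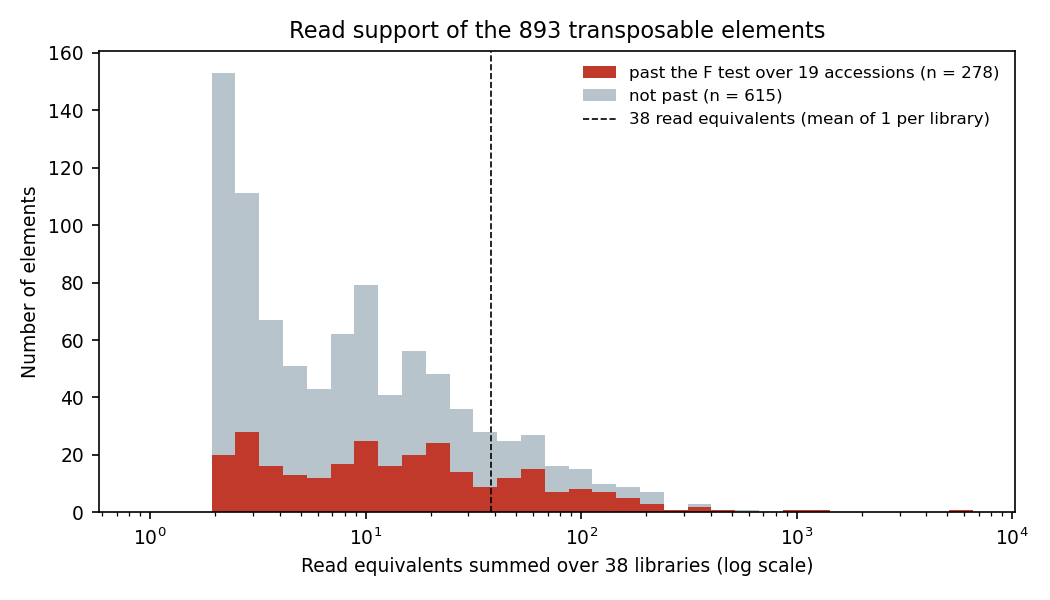
Histogram of the read equivalents of each element summed over 38 libraries (x axis, log scale) against the number of elements (y axis), with the 278 elements past the F test over 19 accessions in red and the rest in grey. The dashed line marks 38 read equivalents, and most elements of both kinds lie to its left.

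Just inside the rule lay AT5TE95835, AT5TE95125 and AT5TE51900, whose second highest values were 1.002, 1.0021 and 1.0039 RPKM. Just outside lay AT1TE79940, AT1TE21735 and AT5TE60825, with second highest values of 0.99958, 0.9994 and 0.99656 RPKM. The line between them has no gap.

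The 12 elements with the highest mean RPKM included both broad and narrow patterns. AT3TE94190 on chromosome 3 had the highest mean, 185.6 RPKM, and was high in 4 accessions, as described below. AT5TE77640, the highest on chromosome 5, had a mean of 64.8 RPKM, a median of 57.3 and a highest value of 160.0 RPKM in Sf-2 replicate 2, and it was at 0 in 4 libraries. Its implied length was 11.0 bp and its total 95.1 read equivalents. It was the highest element of 10 libraries, more than any other element.

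AT5TE18975 on chromosome 5 ran from 0 in Ws-0 replicate 2 to 119.0 RPKM in Po-0 replicate 2, with a median of 37.48 RPKM and 321.1 read equivalents. It was on in 18 of 19 accessions, where on means at least 1 RPKM in both libraries. AT4TE12430, the highest on chromosome 4, had a median of 27.2 RPKM and reached 63.7 RPKM in Edi-0 replicate 1, from 88.6 read equivalents over an implied 22.0 bp. Some of its values lay between whole steps, such as 4.50 and 5.50 read equivalents in Edi-0, so its total and length may be too low. AT4TE34440, also on chromosome 4, had a median of 14.7 RPKM and its highest values in Edi-0, 88.9 and 58.7 RPKM, followed by Can-0, 57.0 and 51.8 RPKM, on 155.4 read equivalents in all. AT4TE34440 did not pass the F test over accessions (adjusted p = 0.124, limma). AT2TE26660, the highest on chromosome 2, was at 0 in 19 libraries and reached 93.2 RPKM in Hi-0 replicate 1 against 14.4 RPKM in Hi-0 replicate 2, on 37.0 read equivalents in all.

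Only 5 elements were on in all 19 accessions: AT1TE67380, AT3TE25950, AT3TE39720, AT4TE10030 and AT5TE25140. Each was chosen for this description by its pattern. AT3TE25950 lay between 5.18 RPKM in Sf-2 replicate 2 and 44.6 RPKM in Col-0 replicate 2, with a median of 14.8 RPKM. AT4TE10030 lay between 2.10 and 37.0 RPKM with a median of 11.4, AT3TE39720 between 3.74 and 38.04 with a median of 15.1, AT5TE25140 between 1.86 and 20.9 with a median of 9.16, and AT1TE67380 between 1.23 and 15.6 with a median of 6.53. Each had between 161.2 and 316.8 read equivalents. Of these elements, AT5TE25140 alone passed the F test over accessions (adjusted p = 0.0169). For AT4TE10030 the adjusted p was 0.0507.

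The on-off pattern was read in each of 16967 pairs of an element and an accession. An element was on in 1662 pairs (9.80%), off in 10902 (64.3%), where off means listed at 0 in both libraries, and at a low or split level in 3951 (23.3%). The other 452 pairs (2.66%) had no value. Of the 893 elements, 412 were on in no accession, because the libraries in which they reached 1 RPKM all belonged to different accessions. Another 209 were on in 1 accession, 267 in 2 to 18, and 5 in all 19. A total of 452 elements were on in at least 1 accession and off in at least 1 other.

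**Figure D3:**
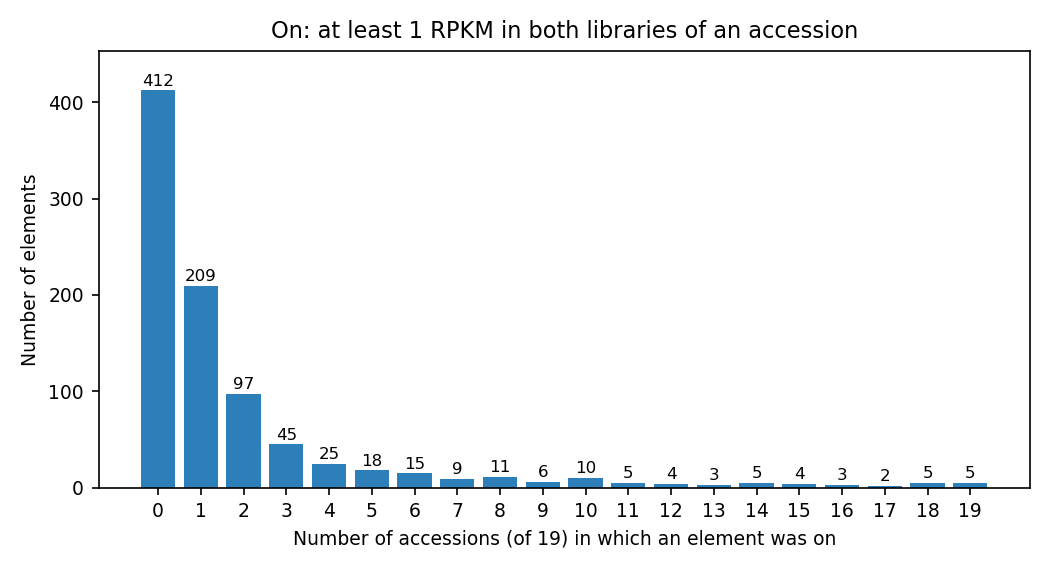
Number of elements (y axis) by the number of accessions, from 0 to 19, in which they were on (x axis), with on meaning at least 1 RPKM in both libraries. The bars fall from 412 elements on in no accession and 209 on in 1 to 5 on in all 19.

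The number of accessions in which an element was on rose with its reads, in part by definition. Each accession where an element is on adds at least 1 read equivalent from each of its libraries to the total. The median was 3.01 read equivalents for elements on in no accession, 7.01 for those on in 1, 23.1 for those on in 2 to 9, 97.4 for those on in 10 to 18, and 213.2 for those on in all 19. How far low read numbers hide an element that is transcribed was not tested. Requiring 3 read equivalents in both libraries left 65 elements on in 1 accession and 0 on in all 19.

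By accession, the number of elements that were on ran from 49 in Ws-0 to 107 in Ler-0, with Edi-0 at 103 and Bur-0 and Ct-1 at 101 each. The low count of Ws-0 involves its shallow replicate 2, in which 91 elements reached 1 RPKM, against 148 in replicate 1. Elements on in 1 accession alone numbered from 4 in Ws-0 to 18 in Can-0 and 18 in Edi-0. Of the 209, only 9 had 10 or more read equivalents in a library. The highest such element of each accession was examined: in 14 of the 19 both libraries held at most 2 read equivalents, and 15 of the 19 were also above 0 in some library of another accession. Better covered were AT1TE69800 in Ler-0, at 31.9 and 25.1 RPKM from 8.00 and 6.99 read equivalents, and AT5TE44600 in Ws-0, at 3.69 and 9.502 RPKM from 5.00 and 4.00. AT1TE69800 had no value in 14 of the other libraries and AT5TE44600 had none in 18. Libraries of 1 accession could also differ widely. AT1TE74600 in Rsch-4 was at 3.90 RPKM in replicate 1 and 51.4 in replicate 2, and AT3TE48140 in Edi-0 was at 30.4 RPKM in replicate 1 and 2.55 in replicate 2.

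Whether a detected element is seen again was asked with the libraries that did not choose it. Of all elements at 1 RPKM or more in replicate 1 of an accession, a median of 47.5% were at 1 RPKM or more in replicate 2 of the same accession, from 29.9% in Ws-0 to 54.0% in Ct-1. In replicate 2 of the other accessions the median was 36.5%, and the accessions' own medians there ran from 33.0% to 40.4%. Ws-0 went the other way: its 29.9% lay below its median in other accessions, 38.8%, and below its lowest there, 34.4%. Its replicate 2 is the shallowest library. When 1156 elements were each assigned to the accession with their highest value among the replicate 1 libraries, 190 (16.4%) had their highest value among the replicate 2 libraries in the same accession. Another 757 (65.5%) were listed at 0 in replicate 2 of that accession.

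Differences among accessions were tested with an F test over the 19 accession means of log2(RPKM + 1), fitted with limma over all 21562 features that passed the filter, genes included. Of the 893 elements 278 (31.1%) passed at an adjusted p under 0.05 (Benjamini-Hochberg), against 53.9% of all features. Elements on in a single accession often entered the set through that accession alone, so a count of them past the test supports nothing. They made up 118 of the 278, and another 91 elements on in 1 accession did not pass. Counted over the same 278, those with at most 10 read equivalents numbered 123, and 52 never rose above 1 step. These groups overlap with the 118. AT4TE13065 had an adjusted p of 8.9e-11 on values of 9.17 and 5.93 RPKM in Wu-0, each 1.00 read equivalent, with every other library that had a value at 0. The fit pools the spread over all accessions, and pairs of libraries at 0 add none. Such a p-value therefore does not measure the spread between replicates where the element is present. The same holds in part for other elements at 0 in both libraries of many accessions, AT3TE94190, AT1TE70815, AT1TE69810 and AT5TE47170 among them. Of the 128 elements with at least 38 read equivalents 66 (51.6%) passed, close to the share of all features. The median range of accession means was 1.63 on the log2 scale for the 893 elements, against 1.02 for all features, and the median residual SD between replicates was also larger, 0.53 against 0.23.

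The same fit within single pairs of lanes called fewer elements, and a smaller share of all features, than over all accessions. Each fit held only 3 or 4 accessions, and what lowered the counts was not tested. Within a pair, every accession except Zu-0 had a library on each lane. Among Ct-1, Col-0, Can-0 and Bur-0 it called 96 of 892 elements, against 12.6% of all features. Among Ler-0, Kn-0, Hi-0 and Edi-0 it called 93 of 887, against 17.5%. Among Po-0, Oy-0, No-0 and Mt-0 it called 62 of 887, against 3.88%, and among Wil-2, Tsu-0, Sf-2 and Rsch-4 it called 71 of 888, against 6.44%. Among Zu-0, Wu-0 and Ws-0 it called 45 of 876, against 3.60%. In that last fit the Zu-0 libraries shared a lane, so their spread holds no lane difference, and Zu-0 and lane are partly confounded. Of these calls 80, 75, 52, 55 and 31 were also called over all accessions.

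Contrasts with Col-0, which all share the same 2 Col-0 libraries, gave 445 calls of an element higher than Col-0 and 350 of an element lower, among 15633 tests. These are 2.85% and 2.24% of the tests, against 4.47% higher and 4.22% lower over all features. Can-0 had the most elements higher than Col-0, 38, where 5.14% of all features were higher, and Ws-0 the fewest, 14, against 5.06%. Ws-0 also had the most elements lower than Col-0, 25, against 6.91% of all features, and Oy-0 the fewest, 13, against 2.91%. The Ws-0 counts include its library of 1240000 reads, and Ws-0 was on another sequencing run than Col-0. The balance between higher and lower rests on Col-0. Without Col-0 replicate 1 the counts were 330 higher and 493 lower, and without Col-0 replicate 2 they were 283 higher and 483 lower.

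In 13 of the 18 accessions the element furthest from Col-0 was one listed at 0 in both Col-0 libraries, and no fold is given for those. In Hi-0, Oy-0 and Wu-0 it was AT4TE06880, which was higher than in Col-0. In Rsch-4 and Zu-0 the largest difference was a lower level of AT5TE80440, which was at 49.6 and 55.7 RPKM in Col-0 and at 0 in both libraries of each of those accessions (adjusted p = 0.0455 and 0.0399). Over all accessions AT5TE80440 did not pass the F test (adjusted p = 0.0511). AT5TE80440 had an implied length of 17.0 bp and 51.0 read equivalents in all, and it was also at 0 in both Sf-2 libraries and in 1 library of Can-0, Ct-1, Hi-0, Oy-0, Tsu-0, Wil-2, Ws-0 and Wu-0.

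AT4TE06880 on chromosome 4 was the best covered element, with 5994 read equivalents over an implied 2857 bp, and its on-off pattern was sharp. It was on in 11 accessions. Replicates 1 and 2 gave 26.6 and 42.7 RPKM in Bur-0, 37.7 and 51.6 in Can-0, 18.8 and 21.4 in Edi-0, 31.4 and 49.1 in Hi-0, 10.3 and 11.98 in Mt-0, and 25.97 and 33.6 in Oy-0. They gave 16.7 and 8.64 RPKM in Po-0, 33.2 and 49.8 in Sf-2, 23.7 and 20.4 in Ws-0, 18.99 and 24.5 in Wu-0, and 27.6 and 24.3 in Zu-0. Col-0 was at 0.737 and 1.57 RPKM, Tsu-0 at 0 and 0.108, and Wil-2, Rsch-4, No-0, Ler-0, Kn-0 and Ct-1 at 0 in both libraries. The lowest library of the 11 accessions was at 8.64 RPKM and the highest of the other 8 at 1.57 RPKM. The accessions were grouped by these same values, so this gap is a description only. The F test gave an adjusted p of 3.61e-17. On the log2(RPKM + 1) scale Hi-0 was above Col-0 by 4.25 (SE 0.27, adjusted p = 4.21e-11), Oy-0 by 3.85 (SE 0.27, adjusted p = 3.15e-10) and Wu-0 by 3.42 (SE 0.27, adjusted p = 2.75e-09). This SE is pooled over all accessions, and those at 0 in both libraries add no spread to it. It is therefore not the spread of the named accessions alone.

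AT3TE94190 on chromosome 3, with 1304 read equivalents over an implied 55.97 bp, was high in Bur-0, Can-0, Ct-1 and Ws-0. Its values in replicates 1 and 2 were 385.1 and 948.9 RPKM in Bur-0, 451.4 and 1290 in Can-0, 418.1 and 1411 in Ct-1, and 389.9 and 1678 in Ws-0. Po-0 was at 6.30 and 40.9 RPKM, Oy-0 at 0 and 23.3, Rsch-4 at 7.67 and 0, and Sf-2 at 5.01 and 0. The other 11 accessions were at 0 in both libraries. All 8 libraries of the high accessions lay above every other library, but these accessions were named from the same values, so this is a description only. In each of those accessions replicate 2 was more than 2 times replicate 1. The adjusted p of the F test was 2.15e-09. This element alone made up 61.9% of the summed element RPKM of Ws-0 replicate 2 and was the highest element of 8 libraries.

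AT1TE70815 on chromosome 1 was high in Kn-0 alone, at 1071 and 1099 RPKM, and had 960.9 read equivalents over an implied 101.0 bp. Elsewhere it was highest in Bur-0 replicate 1, at 8.01 RPKM, and it was at 0 in 29 of the 36 libraries with a value. Ler-0, at 2.41 and 2.16 RPKM, was the other accession where it was on. The F test gave an adjusted p of 7.8e-09, which reached 3.44e-06 without Kn-0 replicate 2. The names of these Kn-0 libraries end in the same number, as given above.

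A run of 4 elements with nearby identifiers on chromosome 1 shared Ler-0 as their highest accession. AT1TE69810 was at 364.4 and 322.1 RPKM in Ler-0 and at 147.8 and 103.4 in Wil-2, with 11.8 RPKM in Ct-1 replicate 1 and 0 in the other 19 libraries that had a value. AT1TE69815 was at 33.3 and 26.1 RPKM in Ler-0, at 15.5 and 10.9 in Wil-2, at 3.43 and 20.8 in Ct-1, at 10.1 and 4.97 in No-0, at 3.99 and 1.83 in Mt-0, and at 2.09 RPKM or less in every other library. AT1TE69805 was at 15.1 and 14.1 RPKM in Ler-0, at 8.89 and 10.1 in Wil-2 and at 6.58 and 8.13 in No-0. AT1TE69800 was on in Ler-0 alone. The element with the preceding identifier, AT1TE69795, differed: it was highest in No-0, at 4.91 and 1.62 RPKM, with 1.26 and 5.48 in Wil-2, 2.34 and 2.07 in Mt-0, and 0 and 0.578 in Ler-0, on 29.3 read equivalents. AT1TE69795, AT1TE69800, AT1TE69805 and AT1TE69810 had no value in the same 7 accessions, Edi-0, Oy-0, Rsch-4, Tsu-0, Ws-0, Wu-0 and Zu-0. AT1TE69795, AT1TE69805 and AT1TE69815 were picked after their values were seen. Their adjusted p-values were 0.00349, 8.28e-09 and 8.3e-10, and that of AT1TE69810 was 4.34e-08. AT1TE69805, AT1TE69810 and AT1TE69815 had 128.2, 73.96 and 212.8 read equivalents, and the implied length of AT1TE69810 was 18.98 bp. AT1TE69810 lay between whole steps in Ler-0 replicate 1 (28.49) and Wil-2 replicate 2 (5.50), so its total and length may be too low.

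Several well covered elements stood out in 1 or 2 accessions. AT4TE43140 on chromosome 4 was at 104.4 and 99.7 RPKM in Sf-2, and its next highest library was Bur-0 replicate 2 at 17.1 RPKM. AT3TE35290 on chromosome 3 was at 32.4 and 38.3 RPKM in Wil-2, at 3.85 and 2.44 in Tsu-0 and at 0.996 and 1.69 in Kn-0, and at 0 elsewhere. AT1TE42875 on chromosome 1 was at 31.9 and 26.3 RPKM in Po-0 and at 6.34 and 8.83 in Sf-2, with at most 1.60 RPKM elsewhere. In these 3 elements no library of the leading accession overlapped any other library, but that accession was picked by its values. The adjusted p-values of the F test were 3.54e-07, 1.22e-15 and 3.26e-10. AT3TE35290 was at 0 in 32 of 38 libraries, and AT1TE42875 in 26 of the 34 with a value. The limit given for AT4TE13065 therefore holds for both, and in part for AT4TE43140, at 0 in 15 of 38. The 3 elements had 185.5, 66.99 and 140.6 read equivalents.

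AT5TE47170 on chromosome 5 was at 15.6 and 21.3 RPKM in Edi-0 and at 10.3 and 16.8 in Tsu-0. The element with the preceding identifier in this set, AT5TE47165, also led in these accessions, at 11.5 and 13.8 RPKM in Edi-0 and 11.96 and 18.7 in Tsu-0. Both had a much lower level in Ct-1, 0 and 1.85 RPKM for AT5TE47170 and 1.96 and 2.21 for AT5TE47165. The adjusted p-values were 6.7e-11 and 4.14e-14, on 26 and 99 read equivalents. AT5TE47165 was picked after its values were seen.

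Narrow patterns among elements of short implied length had few read equivalents. Values of AT4TE50055, AT4TE13520, AT2TE06530, AT2TE21920 and AT3TE64065 lay between whole steps, such as 1.75 read equivalents for AT4TE50055 in Ct-1 replicate 1. The read equivalents and lengths of these elements may therefore be too low. AT4TE50055, with an implied length of 8.00 bp, was on in Ct-1, Kn-0, No-0 and Sf-2, at 49.2 and 63.7, 62.7 and 79.9, 93.0 and 71.5, and 122.7 and 55.0 RPKM, and at 0 in the other 30 libraries, on 17.8 read equivalents in all. AT4TE13520 was above 0 in Tsu-0 alone, at 80.9 and 51.3 RPKM from 1.501 and 1.00 read equivalents over an implied 5.99 bp. AT2TE06530 and AT2TE21920 were above 0 in Can-0 alone, at 88.7 and 143.3 RPKM and at 42.3 and 66.0 RPKM, on 2.33 and 2.28 read equivalents in all. AT3TE46190 led in Ws-0, at 23.9 and 76.9 RPKM, and in Mt-0, at 15.0 and 26.5 RPKM, on 8.00 read equivalents. AT3TE64065 was on in Sf-2 alone, at 41.6 and 32.6 RPKM, with 36.9 RPKM in Tsu-0 replicate 2, on 4.62 read equivalents.

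**Figure D4:**
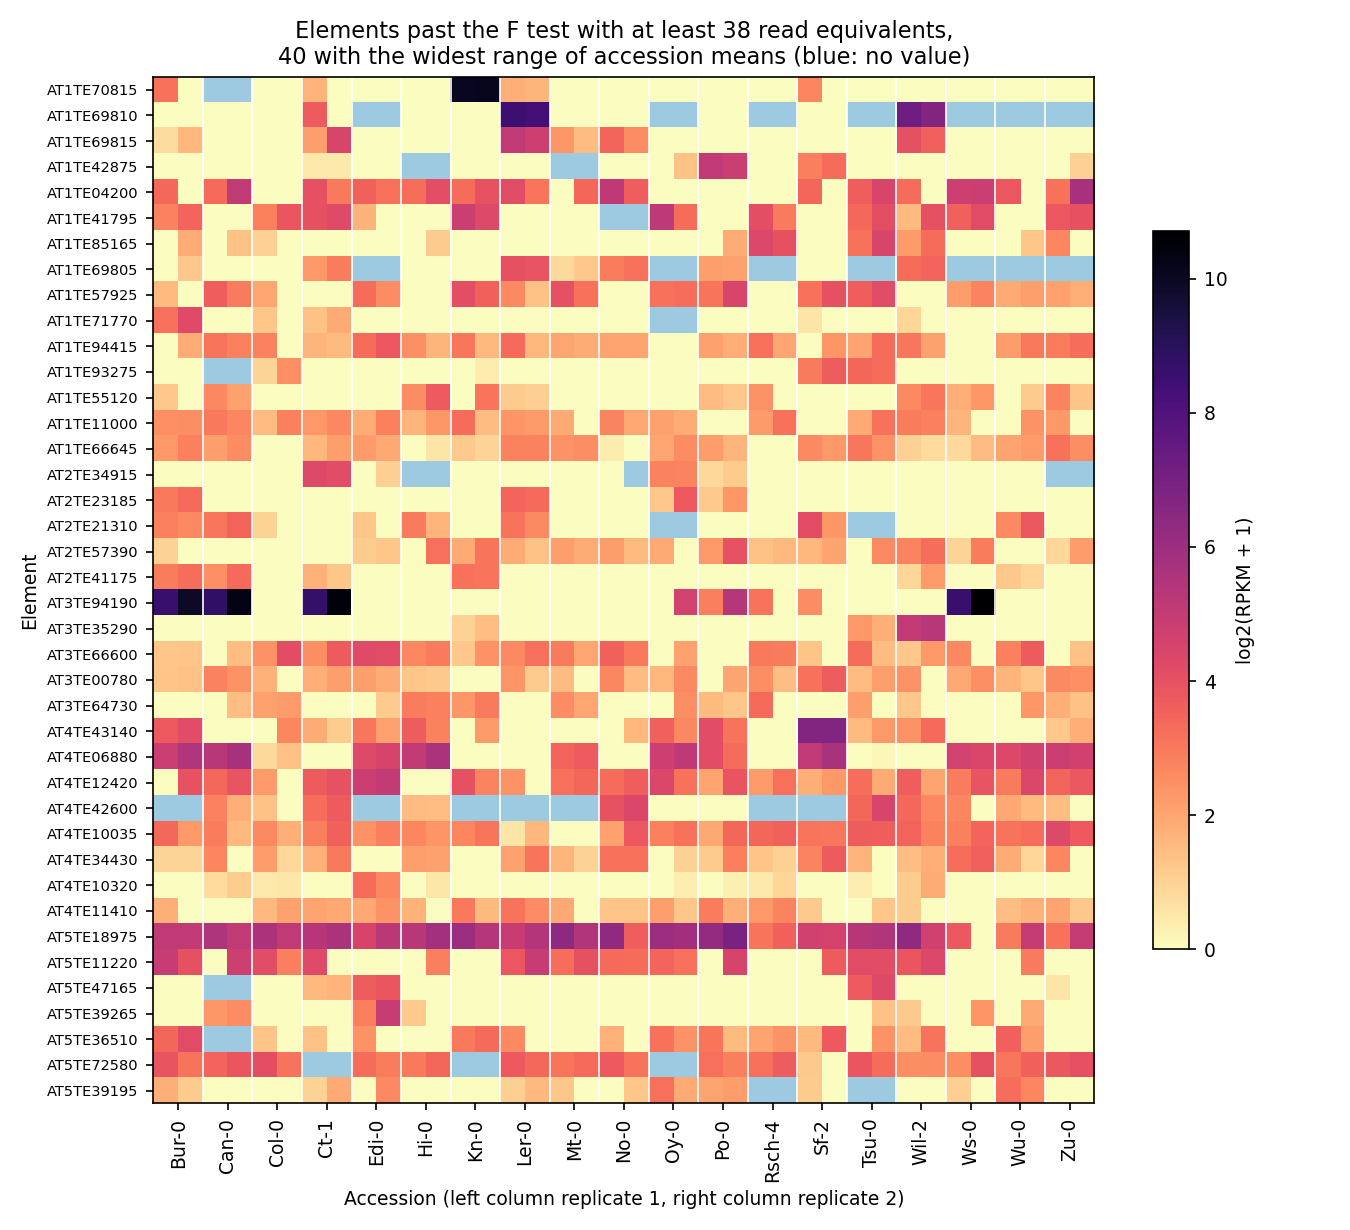
Heat map of log2(RPKM + 1) for 40 elements (rows, by chromosome) in 38 libraries (columns, 2 per accession): those past the F test with at least 38 read equivalents that had the widest range of accession means. Darker cells are higher and blue cells have no value. AT1TE70815 is dark in Kn-0, AT3TE94190 in Bur-0, Can-0, Ct-1 and Ws-0, and every row holds at least 1 library at 0.

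The 40 elements of the heat map, picked after their values were seen, ranged in implied length from 18.98 to 2857 bp. All 40 were listed at 0 in at least 1 library, 13 were on in at most 4 accessions and 15 in 10 or more. Among the broad ones, AT5TE72580 on chromosome 5 was at 4.71 to 15.8 RPKM in both libraries of 15 accessions, at 1.32 and 0 in Sf-2, and without a value in Ct-1, Kn-0 and Oy-0. AT4TE10035 on chromosome 4 was highest in Zu-0, at 18.8 and 12.5 RPKM, at 0.490 and 2.05 RPKM in Ler-0, and at 0 in both Mt-0 libraries. AT1TE41795 on chromosome 1 was on in 10 accessions, up to 35.2 RPKM in Oy-0 replicate 1, and at 0 in both libraries of 7. AT2TE34915 on chromosome 2 was at 18.5 and 16.8 RPKM in Ct-1 and at 5.92 and 5.64 in Oy-0. AT1TE71770 was at 8.27 and 17.8 RPKM in Bur-0 and at 1.53 and 2.78 in Ct-1.

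By chromosome, the 893 elements were 223 on chromosome 1, 149 on chromosome 2, 157 on chromosome 3, 155 on chromosome 4 and 209 on chromosome 5. These were 3.13%, 2.505%, 2.43%, 3.12% and 3.13% of the elements listed on each chromosome. The share past the F test was alike, 32.7%, 32.9%, 31.2%, 31.0% and 28.2% in the same order. Elements with at least 38 read equivalents numbered 36, 15, 20, 26 and 31. Elements without a value in at least 1 library, those without any value included, were 21.6%, 24.1%, 30.2%, 27.5% and 23.6% of those listed, and 25.2% over all chromosomes. The chromosome is the digit in the identifier. Positions, families and sequences of the elements were not analysed here.

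Missing values followed the accession. The files give some elements the code -1 in place of a level, and this was read as no value. Of all elements 3138 had no value in any library, 4725 had none in some, and 23326 had one in all. Of the 893 elements 154 (17.2%) lacked a value somewhere. All of these have a value in some library, and the matching share is 16.8% of the 28051 elements with a value somewhere. A value was missing from both libraries of an accession in 441 pairs of an element and an accession, from replicate 2 alone in 11, and from replicate 1 alone in 0. Within Col-0, no element lacked a value beyond the 3138 without one everywhere.

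Each element with a value in all libraries was set beside every gene with one, 20101 genes, to find the gene whose accession means of log2(RPKM + 1) were most like it. For 739 elements the highest correlation had a median of 0.83 over 19 accession means, a value chosen from many genes and given as a description only. The best gene lay on the element's own chromosome for 168 elements (22.7%), where 20.7% of genes lie. For the 184 of them past the F test it was 47 (25.5%), against 20.4%. Of the 104 with at least 38 read equivalents, 8 had a best gene with a correlation of 0.9 or more, and for 5 of these the gene was on the same chromosome. The points of such a correlation share their libraries.

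The gene most like AT4TE06880 was AT4G03060, or AOP2, on chromosome 4, with a correlation of 0.99 over the accession means and 0.85 for the next gene. AOP2 encodes a dioxygenase that makes alkenyl glucosinolates, defence compounds of the cabbage family, and it is known to differ among accessions. Its mean lay between 181.9 and 636.1 RPKM in the 11 accessions where the element was on and between 1.03 and 23.3 RPKM in the other 8. In Can-0, the highest, AOP2 was at 636.1 ± 45.4 RPKM (SD, n = 2), and in Mt-0, the lowest of the 11, at 181.9 ± 4.41 (SD, n = 2). Col-0, where the element was at 0.737 and 1.57 RPKM, also had the highest AOP2 level among the 8, at 19.1 and 27.4 RPKM. The correlation was 0.99 within the replicate 1 libraries and 0.99 within the replicate 2 libraries. These correlations span the gap between the 11 accessions and the other 8, and the relation within either group was not tested. Whether reads of the element and the gene come from 1 transcript was not tested.

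AT3TE94190 was most like AT3G62460, on chromosome 3, with a correlation of 0.92 over the accession means. The gene had means of 265.6 RPKM in Bur-0, 296.2 in Can-0, 283.5 in Ct-1 and 275.2 in Ws-0, where the element was high. In the 14 accessions where the element was not on, its mean reached at most 7.72 RPKM, in Ler-0. In Po-0, where the element was on at 6.30 and 40.9 RPKM, the gene was at 0.512 and 2.34. The gene did not share the gap between replicates: its replicate 1 value was the higher in all 4 accessions, and the element's replicate 2 value was. In Ws-0 the gene was at 281.2 and 269.2 RPKM while the element was at 389.9 and 1678 RPKM.

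AT1TE66645 on chromosome 1, with 397.0 read equivalents over an implied 989.6 bp, was most like ESP, AT1G54040, also on chromosome 1, with a correlation of 0.90. ESP encodes the epithiospecifier protein, which steers what glucosinolates break down to. The element was on in 12 accessions, from 2.04 RPKM in Ct-1 replicate 1 to 7.82 in Zu-0 replicate 1, and in these ESP means lay between 2153 and 6575 RPKM. In the other 7 accessions ESP lay between 23.7 and 1251 RPKM. Among those 7, Col-0 and Rsch-4 were at 0 for the element in both libraries and had ESP at 26.2 ± 2.03 and 31.8 ± 0.70 RPKM (SD, n = 2). Kn-0 had the element at 1.27 and 0.940 RPKM with ESP at only 23.7 ± 3.65 (SD, n = 2). The adjusted p of the element's F test was 5.45e-09.

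**Figure D5:**
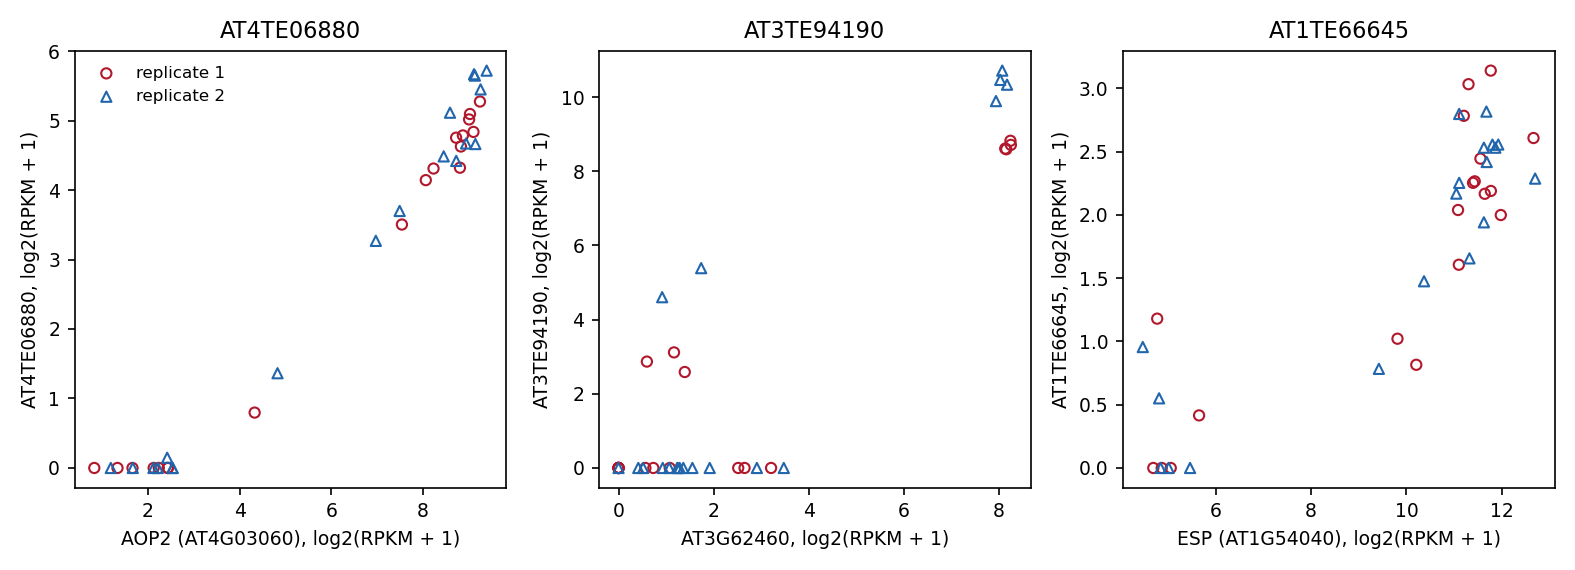
Level of 3 elements against the gene with the most similar accession means, in log2(RPKM + 1) on both axes, 1 point per library, with red circles for replicate 1 and blue triangles for replicate 2. AT4TE06880 is high where AOP2 is high, and low or without signal where AOP2 is low. AT3TE94190 falls into a low and a high cluster with replicate 2 above replicate 1 in the high one, and AT1TE66645 is low where ESP is low.

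The other elements with a correlation of 0.9 or more were AT3TE35290 with AT3G58210 and AT2TE41175 with AT2G17810 on the same chromosome, and AT4TE16845, AT5TE39265 and AT4TE10035 with genes on another. The gene most like AT4TE10035 was PGM, the plastid phosphoglucomutase of starch synthesis, whose means lay between 86.3 and 135.0 RPKM in the 17 accessions where the element was on and at 64.3 to 66.1 in the other 2. AT3G58210 was at 5.10 and 3.30 RPKM in Wil-2 and at 0 in every other library, Tsu-0 included, where AT3TE35290 was on at 3.85 and 2.44 RPKM. The next gene was nearly as like AT3TE35290, with a correlation of 0.90 against 0.91. AT4TE16845 had a next gene at 0.9987 against 0.9991. For AT2TE41175 the correlation was 0.54 over the 38 single libraries.

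Among the 739 elements with a value in all libraries, 78 pairs had consecutive identifiers, and their median correlation over accession means was 0.14, against -0.05 over all 272691 pairs. The correlation was above 0.8 in 4 of them (5.13%), against 0.184% of all pairs. The neighbours AT1TE69800 to AT1TE69815 and AT5TE47165 with AT5TE47170, described above, include elements without a value in some accessions and are not among these pairs. These pairs were AT3TE64060 with AT3TE64065 (r = 0.996), AT3TE46185 with AT3TE46190 (r = 0.97), AT3TE32475 with AT3TE32480 (r = 0.90) and AT4TE11460 with AT4TE11465 (r = 0.89). They share libraries, and low-count pairs can share 1 library above 0.

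Genes that write, maintain or remove silencing marks passed the F test about as often as other features. Of 36 listed genes for DNA methylation, histone marks, small RNA production and DNA demethylation, 19 (52.8%) passed the F test, against the 53.9% of all features given above, with a median range of 0.76 on the log2 scale. The widest range was that of DML3, a DNA demethylase, from 5.71 ± 0.149 RPKM in Oy-0 to 0.0957 ± 0.135 in Ct-1 (SD, n = 2; adjusted p = 1.83e-07). The narrowest was that of HDA6, a histone deacetylase, from 16.5 ± 0.977 RPKM in Tsu-0 to 12.8 ± 2.02 in Col-0 (SD, n = 2; adjusted p = 0.446). Picked after their values were seen, ROS1, another DNA demethylase, ran from 12.3 ± 0.230 RPKM in Ct-1 to 3.40 ± 0.325 in No-0, and AGO6, which binds the small RNAs of the methylation pathway, from 3.23 ± 0.474 in Tsu-0 to 0.629 ± 0.0169 in Can-0 (SD, n = 2; adjusted p = 3.84e-08 and 0.000107). Their part in the differences among elements was not tested.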

How the data were processed

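The authors deposited 1 table of RPKM values per library. Per the file headers, RPKM is reads over mapped reads and the length of the exon model. The submitters' processing notes name the builds TAIR 9 and TAIR 10. Nothing in the sources used here names the aligner or how strand and multiply matching reads were treated, so reads of similar copies, or of a gene overlapping an element, may be shared. Other deposited entries, the code -1 in RPKM columns, were read as missing.

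Elements were taken by identifier and fitted with the 20669 genes that passed the same filter, 21562 features in all, as log2(RPKM + 1). Such differences understate changes of low features. A mean per accession was fitted to the libraries with a value, and variances were moderated with a trend (limma 3.58.1 in R 4.3.3), with Benjamini-Hochberg adjustment and a threshold of 0.05. Col-0 contrasts came from the same fit. In simulated data the F test recovered 31% of features changed by 1 and 83% of those changed by 2 on the log2 scale among 21562, and the Col-0 contrast 38% and 82%. The simulation used normally distributed noise and drew the changed features from all features, most of them genes. Its shares therefore do not give the recovery for elements with few reads. Reads per library and read equivalents were estimated from the smallest steps of the values. A value of 3 reads over 1500 bases was worth 0.539 RPKM in Bur-0 replicate 1. Tables were handled in Python 3.11.15.

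Named elements were the 12 highest by mean, the 12 with the widest range among those past the F test, the element furthest from Col-0 and the highest one on alone in each accession, the highest on each chromosome, and 3 on either side of the threshold. Silencing genes were named by widest and narrowest range. Other names are said to be picked after their values were seen or follow from a stated count. The members and lists were chosen with earlier results of these data known. Alternatives covered pseudocounts of 0.5 and 2, filters, scaling, the code, the trend, a replicate block, lane pairs and leaving out each library.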

Additional observations from a re-analysis of the deposited data

How the results depend on the processing

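Depth limits these results: at most 10 read equivalents stand behind 541 of the 893 elements, so an element listed at 0 is not shown to be silent. The F test called 278 elements, and 271 to 297 when 1 library was left out. It called 179 of 500 elements at 1 RPKM in 4 or more libraries, 90 of 236 at a mean of 1 RPKM or more, and 66 of 128 with at least 38 read equivalents, a limit added after seeing the data. Fewer elements were counted under each of these. Fitted without genes it called 221. Of the 445 higher and 350 lower calls against Col-0, 184 and 83 were left at a mean of 1 RPKM, 292 and 173 among elements with a value in all libraries, and 146 and 63 with at least 38 read equivalents. Leaving out 1 library gave 283 to 472 higher and 325 to 493 lower. On in 1 accession were 209 elements, 58 when either library sufficed, 65 at 3 read equivalents or more, and 217 to 253 with 1 library left out. On in all 19 were 5 elements, 3 at 2 RPKM, 19 with either library, 0 at 3 read equivalents, and 5 to 8 with 1 library left out, 8 without Ws-0 replicate 2. On somewhere and off somewhere were 452, 863 with either library, 125 at 3 read equivalents, and 477 to 510 with 1 library left out. The share of best genes on the same chromosome was 21.4% over single libraries, 25.5% for elements past the F test, 25% at 38 or more read equivalents and 20.8% at 10 or fewer, where 20.8% of genes lie, and the share detected again at 2 RPKM was 47.4%. For 18 named contrasts with Col-0, 863 alternative values kept their side of the threshold and 31 lost it, and for 41 named F tests 1910 kept it, 48 lost it and 62 gained it. No sign reversed among these.

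With the replicate number as a block, the F test called 280 elements and the contrasts 447 higher and 351 lower. Deviations of libraries with the same number in different accessions had correlations from -0.11 to 0.13 with a median of -0.0017, so the numbers were not taken to pair the libraries.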
